A study of Mus musculus with 6 samples.

Results

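Polycomb and Trithorax complex genes were followed in the dorsal root ganglia of Ash1l+/- and wild-type mice. These ganglia lie along the spinal cord and hold the cell bodies of sensory neurons with their glia. The 34 genes were taken by symbol from the count table, out of 54532 genes in all, and each symbol matched 1 entry. They encode 7 proteins grouped here as COMPASS methyltransferases, although such activity is uncertain for KMT2E. The others encode 5 subunits of COMPASS complexes, 2 H3K27 demethylases, 5 subunits of Polycomb repressive complex 2 (PRC2) and 15 subunits of Polycomb repressive complex 1 (PRC1). Every one of the 34 genes had reads in each library, from 37 reads of Ezh2 to 6536 reads of Cbx6. Each passed the filter on low counts.

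Trithorax and Polycomb proteins were named for fly mutants that lose or gain expression of homeotic genes. COMPASS complexes methylate histone H3 on lysine 4, a mark of promoters and enhancers in use, while PRC2 methylates lysine 27 of the same histone and PRC1 ubiquitinates histone H2A at genes that are kept silent. Ash1l encodes a histone H3 lysine 36 methyltransferase that is also of the Trithorax group, and lysine 36 methylation is known to hinder PRC2 on the same histone tail. In neurons, which no longer divide, these complexes are known for keeping the genes of other cell types and of earlier stages silent.

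The groups were 3 bulk RNA-seq libraries from Ash1l+/- mice, heterozygous for an altered Ash1l, and 3 from wild-type (WT) littermates. The strain, age and sex, the structure of the allele and the number of animals behind each library are not stated in the labels. The p-values therefore set the genotype difference against the scatter between libraries. That scatter may be partly technical and may not be a scatter between animals. In bulk RNA, fewer cells of a type and less RNA per cell cannot be told apart. Totals ran from 17209294 to 20545722 reads assigned to genes. The 14 sensory neuron markers summed to between 18200 and 19200 CPM (reads of a gene as a share of the library total, after TMM scaling for composition) in the Ash1l+/- libraries, against 18300 in both WT replicates 1 and 3, and none was at 0. Since the altered stretch of Ash1l is not stated, its reads do not check the labels. Ash1l was at 66.5, 66.5 and 68.9 CPM in Ash1l+/- replicates 1, 2 and 3, against 60.9, 30.9 and 54.4 CPM in WT replicates 1, 2 and 3.

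WT replicate 2 stood apart, with a correlation of log2 CPM across genes of 0.846 to 0.877 with the other libraries, which correlated with each other at 0.981 or above. It held 1350 CPM of 8 skeletal muscle markers, against 125 to 135 CPM in the other 5 libraries, and 10800 CPM of 6 satellite glia markers, against 3260 to 4030 CPM. Its sums were also higher for markers of sensory neurons (30700 CPM), Schwann cells (6320 CPM) and erythrocytes (628 CPM). They were lowest of all libraries for markers of fibroblasts (496 CPM), central nervous system tissue (153 CPM) and dividing cells (5.45 CPM). Its low TMM factor (0.759, against 1.05 to 1.07 elsewhere) raised all its CPM relative to library totals. Calls of members are therefore given below with all 6 libraries and without WT replicate 2. Folds of single partner and Hox genes, and calls of markers, are given without it alone. Among the members, 23 lay below both other wild types in WT replicate 2 and 10 above both. That count was not made over all genes tested. The difference from those wild types reached at least 2-fold down in 7 members and at least 2-fold up in 4 members, against 21.1% and 19.9% of all genes tested. Kmt2e lay farthest below, at 4.18 CPM in WT replicate 2 against 32.9 and 40.2 CPM in WT replicates 1 and 3, and Setd1a farthest above, at 46.8 CPM against 14.8 and 13.9 CPM. Long members tended to be low there: the Spearman rho of this difference on gene length was -0.56 across the 34 members, which share these 3 libraries. Over protein-coding genes tested the same rho was -0.46, so the tendency was not particular to the members.

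The 150 bases before the transcription start are shown for the members that passed the test without WT replicate 2 and have an entry in the RefSeq promoter table for GRCm38.p6. Capitals mark CpG dinucleotides, the sequence that CXXC-domain proteins such as KMT2A bind when it is unmethylated. Kmt2e also passed. The stretches are chr9:44881290-44881439 (minus strand), chr5:25498784-25498933 (minus strand), chr11:79992956-79993105 (plus strand), chr3:30969416-30969565 (minus strand) and chr17:34024681-34024830 (minus strand), each written 5′ to 3′ on the gene's strand.
Kmt2a: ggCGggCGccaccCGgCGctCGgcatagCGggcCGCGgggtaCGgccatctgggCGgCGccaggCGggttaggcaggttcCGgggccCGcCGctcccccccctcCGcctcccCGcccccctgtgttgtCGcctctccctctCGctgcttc
Kmt2c: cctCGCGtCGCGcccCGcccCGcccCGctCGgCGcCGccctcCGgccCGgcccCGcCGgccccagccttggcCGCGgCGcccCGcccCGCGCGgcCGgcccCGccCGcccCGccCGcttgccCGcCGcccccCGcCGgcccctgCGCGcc
Suz12: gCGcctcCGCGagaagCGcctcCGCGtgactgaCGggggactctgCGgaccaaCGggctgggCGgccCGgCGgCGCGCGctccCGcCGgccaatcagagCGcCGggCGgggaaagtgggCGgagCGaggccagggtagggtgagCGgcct
Phc3: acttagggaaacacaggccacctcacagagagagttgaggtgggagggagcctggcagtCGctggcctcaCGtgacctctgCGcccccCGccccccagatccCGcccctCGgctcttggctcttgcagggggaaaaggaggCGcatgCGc
Ring1: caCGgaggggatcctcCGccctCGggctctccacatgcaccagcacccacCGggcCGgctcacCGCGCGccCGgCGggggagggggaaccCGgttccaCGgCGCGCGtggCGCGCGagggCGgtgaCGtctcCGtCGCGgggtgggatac

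These stretches held 19 CpG in Kmt2a, 32 in Kmt2c, 23 in Suz12, 8 in Phc3 and 23 in Ring1. Over the 250 bases before the start, 27 members with an entry had a median of 20 CpG, from 1 in Dpy30 to 48 in Kmt2c, against a median of 15 over 11005 protein-coding genes tested. The ratio of observed to expected CpG was 0.723 in the members and 0.715 in those genes, a difference that was not tested. The GC box GGGCGG, searched on both strands, was in 19 of the 27 windows (70.4%, against 59.0% of the tested genes' windows). The ETS core CCGGAAG was in 0 of 27, against 12.9%, and TATAAA in 0 of 27, against 6.41%. The NRF1 motif was in 1, at the end of the Phc3 stretch above (3.7% against 1.54%), and GCCATNTT, the core that the Polycomb-related factor YY1 binds, was in 3 (Jarid2, Bmi1 and Pcgf2; 11.1% against 4.11%). A match describes the letters and not a bound site.

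Members differed widely in level. Levels were compared between genes as CPM per kb of gene length, and the ranges given here leave out WT replicate 2. Dpy30, a small subunit shared by COMPASS complexes, was highest at 25.2 to 27.1 CPM per kb in Ash1l+/- and 21.3 and 24.3 CPM per kb in WT. Cbx6, a Polycomb chromodomain protein, followed at 20.6 to 23.4 CPM per kb in Ash1l+/- and 26.3 and 24.1 CPM per kb in WT. Both were higher still in WT replicate 2, at 48.2 CPM per kb for Dpy30 and 46.0 CPM per kb for Cbx6. Next came Men1 (15.8 to 17.2 over the 5 libraries), whose range did not overlap that of Rbbp5 (13.4 to 15.7). The ranges of Dpy30 and Cbx6 did overlap, as did those of Ezh1 (10.4 to 11.7) and Suz12 (8.81 to 12.3). Ezh2, the H3K27 methyltransferase of dividing cells, was lowest at 0.521 to 0.651 CPM per kb in Ash1l+/- and 0.488 and 0.481 CPM per kb in WT, or 0.414 CPM per kb in WT replicate 2. Levels were also summed per kb. The COMPASS methyltransferases, with Kmt2e counted among them, were at 25.4, 25.2 and 22.1 CPM per kb in Ash1l+/- replicates 1, 2 and 3. In WT replicates 1, 2 and 3 they were at 21.2, 14.5 and 20.4 CPM per kb. The sums of the 2 PRC1 ligases were at 7.82, 7.84 and 8.10 CPM per kb in Ash1l+/- and 9.17, 6.98 and 8.45 CPM per kb in WT. Those of the 5 PRC2 genes were at 27.3, 29.3 and 30.1 CPM per kb in Ash1l+/- and 26.7, 24.8 and 27.4 CPM per kb in WT. The sums of the methyltransferases did not overlap between the groups, with or without WT replicate 2. Those of the ligases overlapped through WT replicate 2 alone, and without it every Ash1l+/- sum was below both wild types. The PRC2 sums overlapped with and without it.

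**Figure D1:**
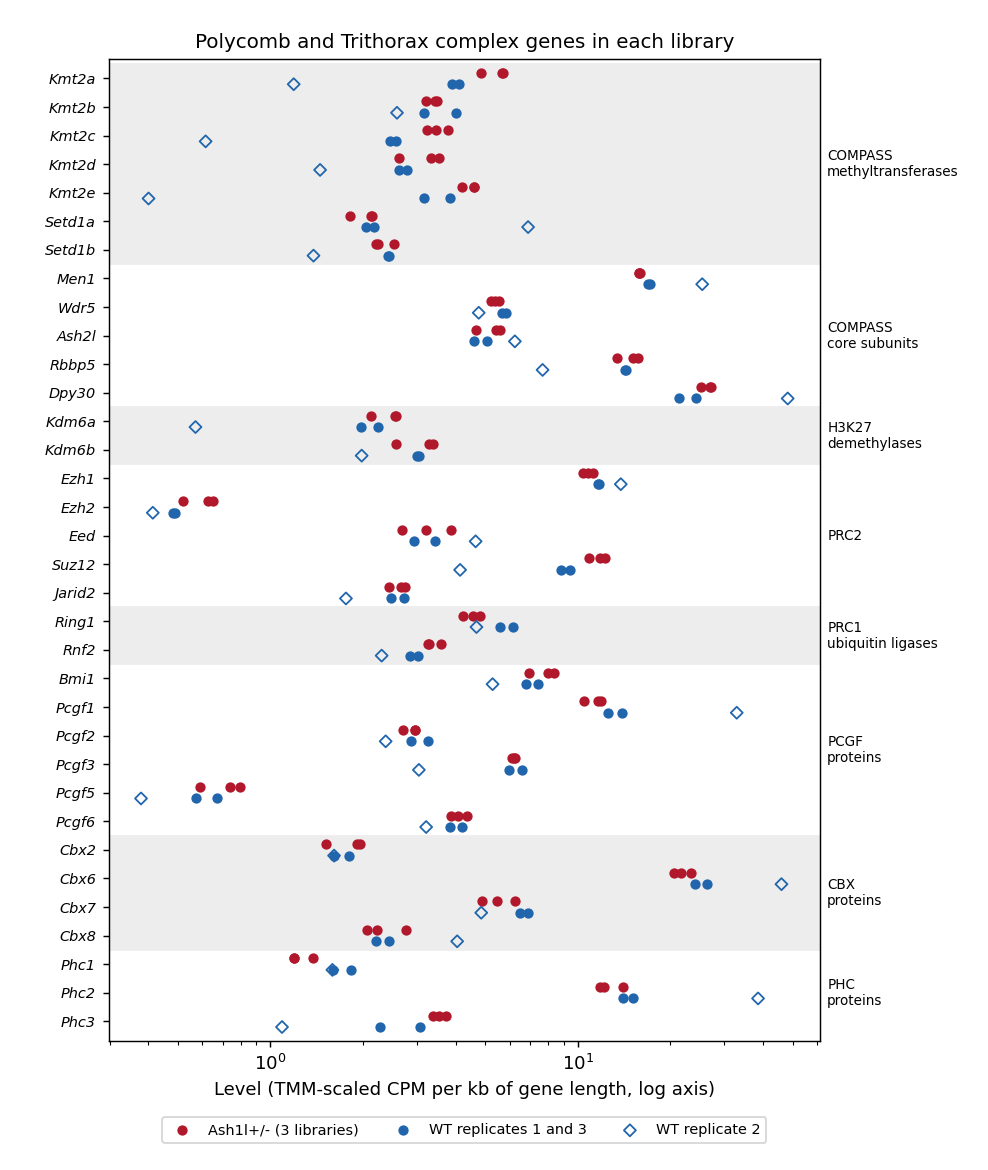
Level of each member in each library, as TMM-scaled CPM per kb of gene length on a log axis, by role in the complexes. Filled circles are the 3 Ash1l+/- libraries (red) and WT replicates 1 and 3 (blue), and the open diamond is WT replicate 2, which lies far from the other libraries in members such as Kmt2e (0.401 CPM per kb) and Setd1a (6.89 CPM per kb).

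The genotype comparison asked which of these genes differ in Ash1l+/- ganglia. With all 6 libraries, edgeR's quasi-likelihood test called 0 of the 34 members and 0 of 16032 genes (0%) at an adjusted p of 0.05. No member reached an unadjusted p of 0.05 there, against 10.6% of all genes. DESeq2 called 0 members and 3 genes (0.0172%). The median log2 fold change, Ash1l+/- over WT, was 0.11 over the members and 0 over all genes tested. The groups did not overlap in 7 members that were higher in Ash1l+/- (20.6%, against 19.3% of all genes) and in 6 that were lower (17.6%, against 19.2%).

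Without WT replicate 2, edgeR called 6 of the 34 members (17.6%), against 19.8% of 16395 genes. Kmt2a, Kmt2c, Kmt2e, Suz12 and Phc3 rose in Ash1l+/- and Ring1 fell. That is 14.7% of members called higher, against 9.39% of genes, and 2.94% called lower, against 10.4% of genes. Read against that background, the total is near that of any genes tested. The median log2 fold change was 0.03 over the members and 0 over all genes, and no member reached 2-fold. When trends of each library with GC content and gene length were removed, 3 members were called (8.82%, against 7.19% of genes): Kmt2a and Kmt2d higher (2.74% of genes were) and Pcgf3 lower (4.45% of genes were). Kmt2a was the 1 member called both ways. DESeq2 without WT replicate 2 called the 5 higher members and not Ring1, against 22.2% of the genes to which it gave an adjusted p (10.7% higher and 11.5% lower).

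**Figure D2:**
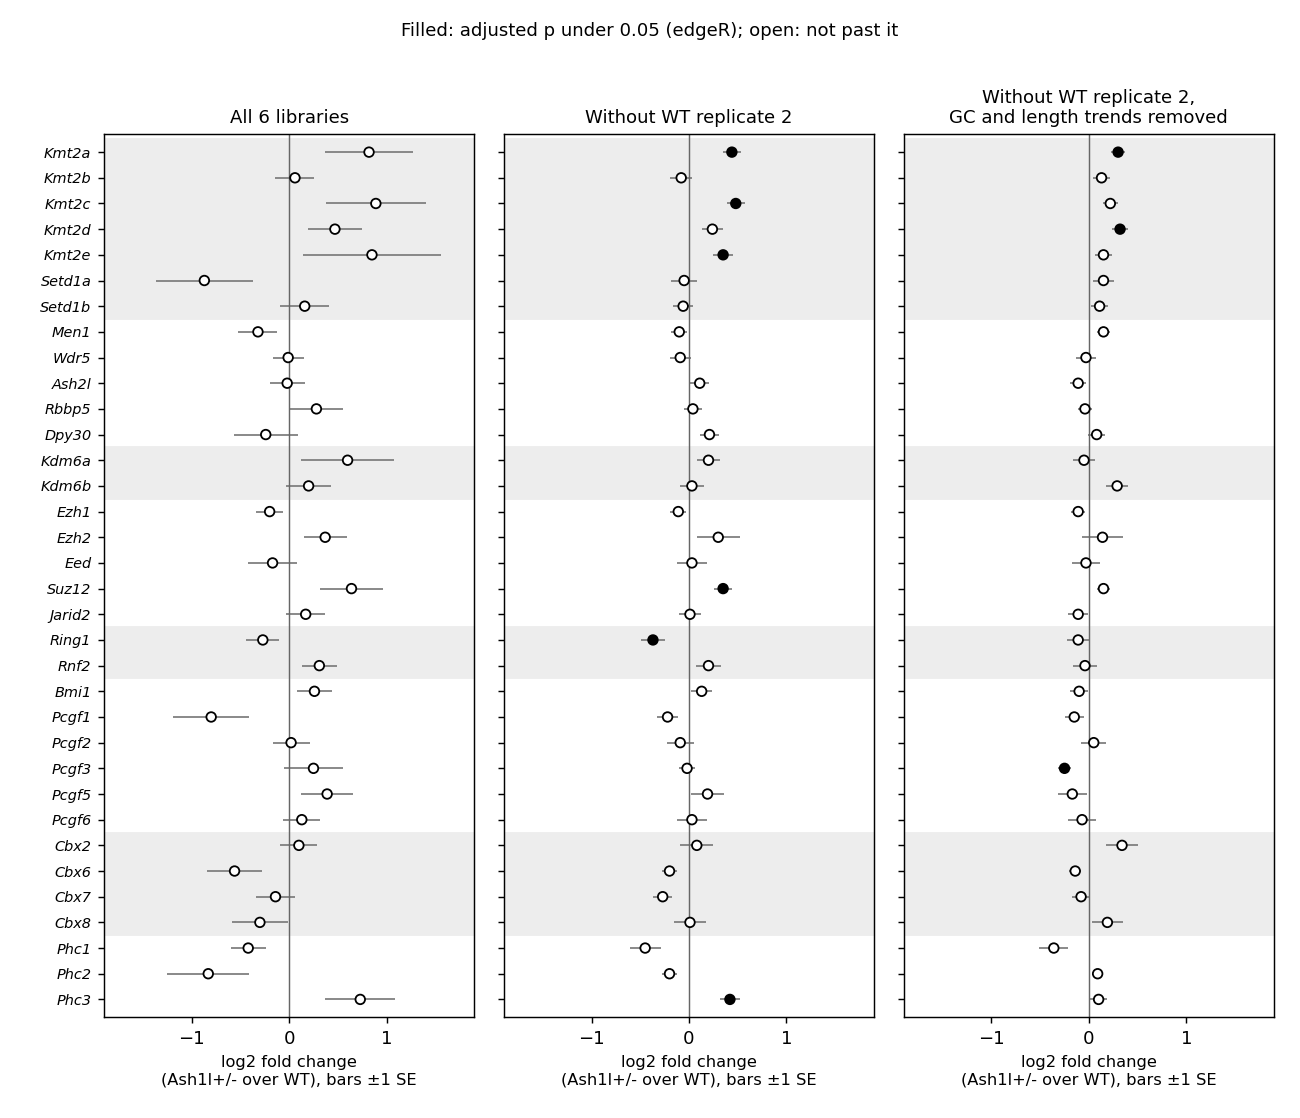
log2 fold change of each member, Ash1l+/- over WT, with bars of 1 SE, with all 6 libraries, without WT replicate 2, and without it after GC and length trends were removed. Filled points are members called by edgeR at 0.05, of which there were 0, 6 and 3 in the 3 analyses.

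The group of COMPASS methyltransferases, in which Kmt2e is counted, held 3 of the 5 rises. That is 42.9% of its 7 genes called higher without WT replicate 2, against 9.39% of all genes tested. Kmt2a and Kmt2c are long, at 16670 and 20291 bases, against a median of 6736.5 bases over the members. Kmt2a, whose product binds menin and methylates promoters of homeotic genes (ENSMUSG00000002028, chromosome 9, 44803355 to 44881296), was at 95.5, 94.5 and 80.9 CPM in Ash1l+/- replicates 1, 2 and 3, against 68.3, 19.8 and 64.8 CPM in WT replicates 1, 2 and 3. Every Ash1l+/- library lay above every WT library. Its log2 fold change by edgeR was 0.44 without WT replicate 2 (SE 0.09, adjusted p = 0.0018), 0.82 with all 6 libraries (SE 0.45, adjusted p = 0.39) and 0.30 with the trends removed (SE 0.07, adjusted p = 0.016). Kmt2c, an enzyme of enhancers that works with KDM6A (ENSMUSG00000038056, chromosome 5, 25271798 to 25498783), was at 70.1, 76.9 and 65.5 CPM in Ash1l+/- and 52.1, 12.5 and 49.6 CPM in WT. The groups again did not overlap. Its log2 fold change was 0.48 without WT replicate 2 (SE 0.09, adjusted p = 0.00105), 0.89 with all 6 (SE 0.51, adjusted p = 0.395) and 0.22 with the trends removed (SE 0.08, adjusted p = 0.098), where it no longer passed. Both stayed called whichever second library was left out, but with the length trend alone removed neither was (Kmt2a 0.19, adjusted p = 0.164; Kmt2c 0.20, adjusted p = 0.138).

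Kmt2e, a SET-domain relative for which methyltransferase activity is uncertain, was at 48.1, 47.8 and 44.0 CPM in Ash1l+/- and 32.9, 4.18 and 40.2 CPM in WT. It had a log2 fold change of 0.35 without WT replicate 2 (SE 0.10, adjusted p = 0.0169), 0.85 with all 6 (SE 0.71, adjusted p = 0.5) and 0.15 with the trends removed (SE 0.09, adjusted p = 0.334). It was not called without Ash1l+/- replicate 2 as well (0.34, adjusted p = 0.0598) or WT replicate 1 as well (0.21, adjusted p = 0.346). Its locus overlaps Srpk2 on the other strand (39.4 to 118 CPM), and the named library kit keeps no strand, so reads of the pair cannot be told apart where they overlap. Kmt2d, the paralog of Kmt2c, was at 70.5, 66.6 and 52.2 CPM in Ash1l+/- and 55.4, 28.9 and 51.9 CPM in WT. The groups overlapped, and it missed the threshold without WT replicate 2 (log2 fold change 0.24, SE 0.11, adjusted p = 0.12) and with all 6 (0.47, SE 0.28, adjusted p = 0.402) but passed with the trends removed (0.32, SE 0.08, adjusted p = 0.0223). With the length trend alone removed, its log2 fold change was -0.04, and it was also called when Ash1l+/- replicate 3 was left out too (0.36, adjusted p = 0.0149). The remaining 3 enzymes, Kmt2b, Setd1a and Setd1b, passed in neither analysis. Kmt2b was at 30.8 to 33.5 CPM in Ash1l+/- and 24.8 to 38.4 CPM in WT. Setd1a was at 12.4 to 14.5 CPM in Ash1l+/- and 13.9 to 46.8 CPM in WT, where the highest value is that of WT replicate 2. Setd1b was at 26.7 to 30.6 CPM in Ash1l+/- and 16.7 to 29.3 CPM in WT.

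The 5 subunits that assemble with these enzymes did not pass the test without WT replicate 2 or with trends removed. WDR5, RBBP5, ASH2L and DPY30 form the core that activates COMPASS enzymes, and menin, the product of Men1, recruits KMT2A and KMT2B. Dpy30, with the largest difference of the 5 without WT replicate 2, was at 28.8, 30.9 and 31.1 CPM in Ash1l+/- and 24.4, 55.2 and 27.8 CPM in WT. Its log2 fold change was 0.21 without WT replicate 2 (SE 0.10, adjusted p = 0.15) but -0.24 with all 6 libraries (SE 0.33, adjusted p = 0.664), so 1 library set its sign. Men1 varied little among Ash1l+/- libraries, at 54.7, 54.6 and 55.0 CPM, below all wild types at 59.4, 87.9 and 58.3 CPM. Wdr5 was at 18.7 to 19.9 CPM in Ash1l+/- and 17.1 to 21.0 CPM in WT. Rbbp5 was at 52.6 to 61.6 CPM in Ash1l+/- and 30.2 to 56.4 CPM in WT, and Ash2l at 41.9 to 50.1 CPM in Ash1l+/- and 41.3 to 56.0 CPM in WT. All 3 overlapped between the groups.

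Neither demethylase of H3K27 passed the test in these analyses. Kdm6a, an X-linked gene that is also a subunit of KMT2C and KMT2D complexes, was at 17.8, 21.5 and 21.4 CPM in Ash1l+/- and 16.5, 4.78 and 18.7 CPM in WT. Its log2 fold change was 0.20 without WT replicate 2 (SE 0.12, adjusted p = 0.266), 0.60 with all 6 (SE 0.48, adjusted p = 0.486) and -0.05 with the trends removed (SE 0.11, adjusted p = 0.837). Kdm6b, which is inducible in many cell types, was at 23.6, 22.7 and 17.8 CPM in Ash1l+/- and 21.2, 13.7 and 20.9 CPM in WT, with overlap between the groups.

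In PRC2, Suz12 rose without WT replicate 2 and the catalytic subunits did not pass the test. Suz12, the scaffold of the complex (ENSMUSG00000017548, chromosome 11, 79993106 to 80034123), was at 53.8, 58.3 and 61.0 CPM in Ash1l+/- and 43.6, 20.5 and 46.7 CPM in WT. All Ash1l+/- libraries lay above the wild types, and the log2 fold change was 0.35 without WT replicate 2 (SE 0.09, adjusted p = 0.00788), 0.64 with all 6 (SE 0.32, adjusted p = 0.385) and 0.15 with the trends removed (SE 0.07, adjusted p = 0.221), where it no longer passed. Leaving out WT replicate 1 as well also ended the call (0.30, adjusted p = 0.135). Ezh1, the catalytic subunit typical of cells that no longer divide, was at 80.4, 77.0 and 83.1 CPM in Ash1l+/- and 87.1, 103 and 86.4 CPM in WT. Its paralog Ezh2 was at 3.48, 4.35 and 4.17 CPM in Ash1l+/- and 3.26, 2.76 and 3.21 CPM in WT. Neither pair of groups overlapped, Ezh1 being lower and Ezh2 higher in Ash1l+/-, with log2 fold changes of -0.11 (SE 0.08, adjusted p = 0.321) and 0.30 (SE 0.22, adjusted p = 0.36) without WT replicate 2. With all 6 libraries these were -0.20 (SE 0.14, adjusted p = 0.448) for Ezh1 and 0.37 (SE 0.22, adjusted p = 0.4) for Ezh2. With the trends removed the log2 fold change of Ezh2 was 0.14 without WT replicate 2 (SE 0.21, adjusted p = 0.752) and -0.01 with all 6 (SE 0.22, adjusted p = 0.99).

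Per kb, Ezh2 made up 4.60%, 5.91% and 5.30% of the summed Ezh1 and Ezh2 level in Ash1l+/- replicates 1, 2 and 3, against 4%, 2.91% and 3.98% in WT replicates 1, 2 and 3. The means were 5.27% ± 0.657 in Ash1l+/- and 3.63% ± 0.626 in WT (SD, n = 3 each; two-sided exact permutation p = 0.1, the smallest that 3 against 3 can give, adjusted p = 0.25 over 5 shares). The difference was 1.64 points with all 6 libraries and 1.28 points without WT replicate 2. The share was computed with no trend removed. Markers of dividing cells, where Ezh2 is typically high, summed over 6 genes to 6.41, 9.01 and 9.35 CPM in Ash1l+/- and 7.01, 5.45 and 6.90 CPM in WT, with none at 0 in all libraries. Both Ezh2 and this sum were lowest in WT replicate 2 of all libraries and in replicate 1 of the Ash1l+/- libraries. In that Ash1l+/- replicate, however, the sum lay below WT replicates 1 and 3, while Ezh2 (3.48 CPM) lay above both (3.26 and 3.21 CPM). The part of dividing cells in the share was not tested. Eed, which reads methylated lysine 27, was at 10.3, 14.8 and 12.2 CPM in Ash1l+/- and 11.2, 17.8 and 13.1 CPM in WT, and Jarid2, an accessory subunit, at 23.6, 25.8 and 26.6 CPM in Ash1l+/- and 26.4, 17.1 and 24.0 CPM in WT.

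In PRC1, Ring1 fell and Phc3 rose without WT replicate 2. RING1 and RNF2 are the paralogous ubiquitin ligases of the complex. Ring1 (ENSMUSG00000024325, chromosome 17, 34020792 to 34024680) was at 14.8, 13.7 and 15.6 CPM in Ash1l+/- and 19.9, 15.2 and 18.1 CPM in WT. WT replicate 2 lay within the Ash1l+/- range. The log2 fold change was -0.37 without WT replicate 2 (SE 0.12, adjusted p = 0.0352), -0.27 with all 6 (SE 0.17, adjusted p = 0.416) and -0.11 with the trends removed (SE 0.11, adjusted p = 0.626), and DESeq2 did not call it (adjusted p = 0.0692 without WT replicate 2). With all 6 libraries and the trends removed its sign turned, to 0.11 (SE 0.24, adjusted p = 0.808). The call also ended when a second library was left out, for Ash1l+/- replicate 2 (-0.32, adjusted p = 0.125), WT replicate 1 (-0.30, adjusted p = 0.298) or WT replicate 3 (-0.44, adjusted p = 0.0572). Rnf2 was at 13.4, 14.9 and 13.6 CPM in Ash1l+/- and 12.5, 9.49 and 11.8 CPM in WT, with no overlap but no call (log2 fold change 0.20, SE 0.13, adjusted p = 0.29 without WT replicate 2; 0.31, SE 0.18, adjusted p = 0.399 with all 6). It overlaps Trmt1l on the other strand (29.3 to 41.0 CPM).

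The balance of Ring1 and Rnf2 reads varied little among wild types, WT replicate 2 included. Per kb, Rnf2 made up 41.5%, 46.0% and 40.6% of the summed level in Ash1l+/- and 33.0%, 33.0% and 33.8% in WT. The means were 42.7% ± 2.84 in Ash1l+/- and 33.3% ± 0.442 in WT, a difference of 9.46 points, or 9.32 without WT replicate 2 (SD, n = 3 each; two-sided exact permutation p = 0.1, the smallest possible, adjusted p = 0.25). Rnf2 and Ring1 differ in base composition, at 39.5% and 56.9% GC, and the share was computed with no trend removed. With the trends removed and without WT replicate 2, their log2 fold changes were -0.04 (SE 0.12) and -0.11 (SE 0.11), both uncalled. With the trends removed and all 6 libraries they were -0.11 (SE 0.15) for Rnf2 and 0.11 (SE 0.24) for Ring1, both uncalled. Those signs are opposite to the share difference.

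**Figure D3:**
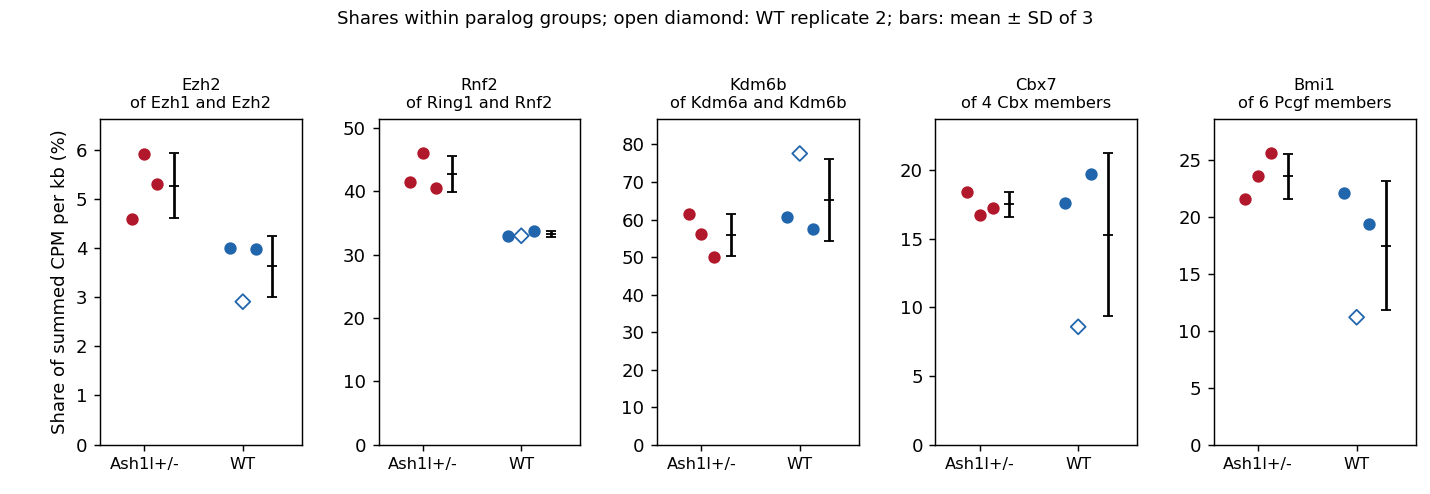
Share of 1 paralog in the summed level of its group (percent of CPM per kb) in each library, Ash1l+/- left of WT, with the mean ± SD of 3 libraries as bars and WT replicate 2 as an open diamond. The Rnf2 share was 40.6% to 46.0% in Ash1l+/- and 33.0% to 33.8% in WT, while the shares of Kdm6b, Cbx7 and Bmi1 overlapped between groups. No trend was removed from the shares.

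Genes of the PCGF proteins, which define the subtypes of PRC1, did not pass without WT replicate 2. Pcgf1, of variant PRC1 and with the largest difference of the 6 without WT replicate 2, was at 19.1, 19.7 and 17.3 CPM in Ash1l+/- and 20.6, 54.2 and 23.0 CPM in WT, lower in every Ash1l+/- library. Its log2 fold change was -0.22 without WT replicate 2 (SE 0.11, adjusted p = 0.191) and -0.80 with all 6 libraries (SE 0.39, adjusted p = 0.385). Pcgf3, also of variant PRC1, was at 59.1, 59.7 and 58.4 CPM in Ash1l+/- and 56.9, 29.0 and 62.7 CPM in WT. It had a log2 fold change of -0.02 without WT replicate 2 (SE 0.08, adjusted p = 0.918) and 0.25 with all 6 (SE 0.30, adjusted p = 0.614), and it was called lower with the trends removed (-0.25, SE 0.07, adjusted p = 0.0342). Bmi1, of canonical PRC1, was at 27.6, 31.8 and 33.3 CPM in Ash1l+/- and 29.4, 21.0 and 27 CPM in WT. It made up 23.6% ± 1.99 of the PCGF level per kb in Ash1l+/- and 17.5% ± 5.66 in WT (SD, n = 3 each; exact permutation p = 0.2, adjusted p = 0.333), a difference of 6.02 points that was 2.85 points without WT replicate 2. Pcgf2, its closest paralog, ranged over 9.50 to 10.4 CPM in Ash1l+/- and 8.37 to 11.5 CPM in WT, Pcgf5 over 7.46 to 10 CPM in Ash1l+/- and 4.78 to 8.45 CPM in WT, and Pcgf6 over 8.15 to 9.12 CPM in Ash1l+/- and 6.72 to 8.81 CPM in WT.

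CBX proteins carry the chromodomain with which canonical PRC1 binds methylated lysine 27. Cbx6 was the most abundant member by CPM, at 248, 219 and 229 CPM in Ash1l+/- and 279, 488 and 255 CPM in WT. The groups did not overlap, but the log2 fold change of -0.20 without WT replicate 2 missed the threshold (SE 0.08, adjusted p = 0.0754), as did -0.56 with all 6 (SE 0.28, adjusted p = 0.385). Cbx7 was at 40.4, 31.5 and 35.5 CPM in Ash1l+/- and 42.2, 31.5 and 44.6 CPM in WT, with a log2 fold change of -0.27 without WT replicate 2 (SE 0.10, adjusted p = 0.0696) and -0.14 with all 6 (SE 0.20, adjusted p = 0.674). It overlaps Apobec3 on the other strand (1.5 to 3.49 CPM). Leaving out Ash1l+/- replicate 1 as well, both were called lower by edgeR, Cbx6 at -0.26 (adjusted p = 0.0145) and Cbx7 at -0.38 (adjusted p = 0.00632). That fit called 10 members, the most of any fit without WT replicate 2. No share of all genes is set beside these calls, so they are not read as particular to the members. With the trends removed and WT replicate 2 alone left out, edgeR called neither. Cbx6 was then at -0.14 (SE 0.06, adjusted p = 0.182) and Cbx7 at -0.08 (SE 0.09, adjusted p = 0.682). Cbx7 made up 17.5% ± 0.889 of the CBX level per kb in Ash1l+/- and 15.3% ± 5.90 in WT (SD, n = 3 each; exact permutation p = 0.9, adjusted p = 0.9); the difference was 2.17 points, and -1.19 points without WT replicate 2. Kdm6b made up 55.9% ± 5.68 of the demethylase level in Ash1l+/- and 65.2% ± 10.8 in WT (exact permutation p = 0.3, adjusted p = 0.375), a difference of -9.35 points that was -3.17 points without WT replicate 2. Cbx2 was at 6.49 to 8.35 CPM in Ash1l+/- and 6.87 to 7.67 CPM in WT, and Cbx8 at 7.56 to 10.2 CPM in Ash1l+/- and 8.14 to 14.9 CPM in WT.

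The PHC genes encode proteins whose SAM domains join PRC1 into larger assemblies, and their log2 fold changes differed in sign. Phc3 (ENSMUSG00000037652, chromosome 3, 30899371 to 30969415) was at 59.1, 65.2 and 61.8 CPM in Ash1l+/- and 39.6, 19.1 and 53.5 CPM in WT. It was higher in each Ash1l+/- library than in any wild type, with a log2 fold change of 0.42 without WT replicate 2 (SE 0.10, adjusted p = 0.00868), 0.73 with all 6 (SE 0.36, adjusted p = 0.385) and 0.10 with the trends removed (SE 0.09, adjusted p = 0.562). It was not called without WT replicate 1 as well (0.21, adjusted p = 0.296). Phc2 was at 98.6, 86.1 and 83.5 CPM in Ash1l+/- and 107, 273 and 98.8 CPM in WT. Its log2 fold change of -0.20 without WT replicate 2 was not called (SE 0.08, adjusted p = 0.103), nor was -0.83 with all 6 (SE 0.42, adjusted p = 0.385), and it was 0.09 with the trends removed. Phc1 was at 7.28, 6.28 and 6.29 CPM in Ash1l+/- and 8.50, 8.44 and 9.70 CPM in WT. WT replicate 2 lay near the other wild types here, and the log2 fold changes were close, at -0.42 with all 6 (SE 0.18, adjusted p = 0.385), -0.45 without it (SE 0.16, adjusted p = 0.0536) and -0.36 with the trends removed (SE 0.15, adjusted p = 0.174). None of these passed. Leaving out Ash1l+/- replicate 1 as well, both Phc1 (-0.53, adjusted p = 0.0306) and Phc2 (-0.28, adjusted p = 0.0106) were called lower by edgeR. This was again the fit with the most members called, at 10, with no share of all genes beside it. These calls too are not read as particular to the members.

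The folds of the members varied with base composition and length. In the 5 libraries other than WT replicate 2, the Spearman rho of log2 fold change across the 34 members was -0.57 on the GC content of the longest transcript and 0.38 on gene length. Over 14286 protein-coding genes the same measures were -0.60 and 0.36. Members and genes share the same 5 libraries in these values. The 5 members that rose had a median length of 16670 bases and a median GC of 45.9%, against 6487 bases and 51.5% for the other 29. With the GC trend alone removed, Kmt2a, Kmt2c and Kmt2d were called higher, where 9.59% of all genes were called. With the length trend alone removed, Dpy30 and Suz12 were called higher and Cbx6, Cbx7 and Phc2 lower, where 14.3% of all genes were called.

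**Figure D4:**
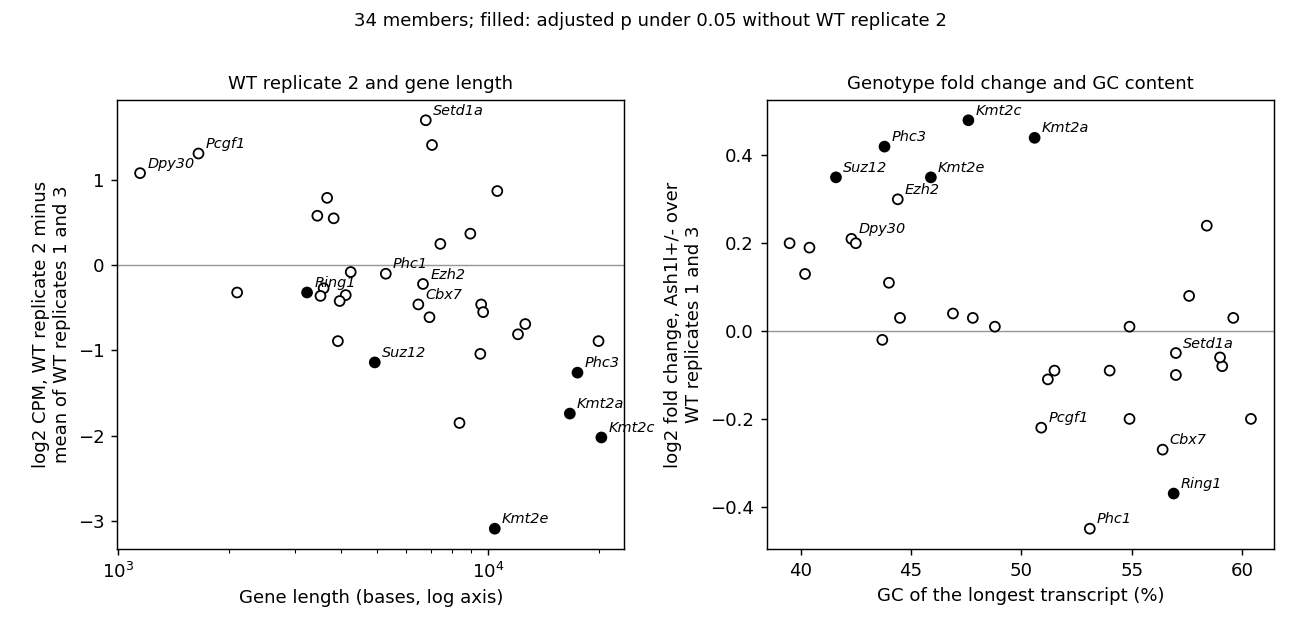
Left, log2 CPM of WT replicate 2 minus the mean of WT replicates 1 and 3 against gene length on a log axis. Right, log2 fold change of Ash1l+/- over WT replicates 1 and 3 against GC content; each point is 1 of 34 members and filled points passed an adjusted p of 0.05, with rho of -0.56 on the left and -0.57 on the right.

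Cell type markers were set beside these differences, with calls made without WT replicate 2, where 9.39% of genes were called higher and 10.4% lower. Fibroblast markers summed over 5 genes to 537 to 598 CPM in Ash1l+/- and 638 to 674 CPM in WT replicates 1 and 3, with 2 of 5 called lower. Macrophage markers summed to 21.2 to 22 CPM in Ash1l+/- and 24.1 to 25.1 CPM in those wild types, with 0 of 5 called. Satellite glia markers summed to 3260 to 4030 CPM in Ash1l+/- and 3750 to 3870 CPM in those wild types, with 3 of 6 called higher, and Schwann cell markers to 3700 to 4260 CPM in Ash1l+/- and 4150 to 4220 CPM in those wild types, with 1 of 7 called each way. Of the neuron markers, 3 of 14 were called higher and 3 lower. Erythrocyte markers summed to 31.5 to 93.6 CPM in Ash1l+/- and 78.5 to 101 CPM in those wild types, with 2 of 5 called lower. Central nervous system markers summed to 194 to 240 CPM in Ash1l+/- and 243 to 260 CPM in those wild types, with 1 of 3 tested called each way. No marker of these lists was at 0 in all libraries. Their part in the members' differences was not tested.

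Partners outside the 34 genes were counted by complex. The values here are without WT replicate 2, where 19.8% of all genes were called. Of 7 PRC2 accessory genes 1 was called, Phf1 at a log2 fold change of -0.34 (SE 0.11, adjusted p = 0.0312 by edgeR). Of 13 partners of variant PRC1, Mga (0.45, SE 0.09) and Usp7 (0.24, SE 0.07) rose and Fbrsl1 (-0.51, SE 0.13) fell. Among 9 COMPASS accessory genes tested, Bod1l, a SETD1A partner, rose by 0.64 (SE 0.08, adjusted p = 3.02e-05) and Ncoa6, of KMT2C and KMT2D complexes, by 0.36 (SE 0.09, adjusted p = 0.00938). With the trends removed Bod1l (0.41, adjusted p = 0.000768) and Ncoa6 (0.27, adjusted p = 0.0453) passed as well. Bod1l was at 109, 110 and 114 CPM in Ash1l+/- and 70.4, 13.7 and 71.7 CPM in WT. Kdm5a was the 1 of 5 H3K4 demethylases that rose (0.42, SE 0.09), Asxl2 the 1 of 9 genes of the H2A deubiquitinase complex PR-DUB (0.42, SE 0.11) and Smarca2 the 1 of 10 SWI/SNF genes (0.24, SE 0.07). None of the other partners named so far passed with the trends removed. Their log2 fold changes were then -0.02 for Phf1, 0.11 for Mga, 0.06 for Usp7, -0.22 for Fbrsl1, 0.12 for Kdm5a, 0.06 for Asxl2 and 0.14 for Smarca2. Besides these, 2 partners were called by edgeR only with the trends removed, where 7.19% of genes were. The PRC2 accessory gene Aebp2 was lower (-0.30, SE 0.08, adjusted p = 0.0325). The SWI/SNF gene Arid1a was higher (0.23, SE 0.07, adjusted p = 0.0469). With all 6 libraries edgeR called none of the genes on these lists, and 1 PRC2 accessory, 1 COMPASS accessory and 1 H3K4 demethylase gene had an unadjusted p under 0.05.

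Hox genes are classic targets of both systems. Of the 24 that were tested without WT replicate 2, 6 fell (25%, against 10.4% of genes) and 0 rose, with a median log2 fold change of -0.22 against 0 over all genes. The 6 were Hoxa5, Hoxb5, Hoxb6, Hoxb7, Hoxb8 and Hoxd1, the same with the trends removed, and no Hoxc gene passed. Most of the 6 are thus adjacent genes of the HoxB cluster, and the share does not count separate loci. With the trends removed 6 fell too (25%, against 4.45% of genes), and the median was -0.07, with 10 genes positive and 14 negative; with all 6 libraries it was -0.16, and 0.04 with the trends removed. Hoxb7, with the largest fold of these, was at 5.68, 3.38 and 4.34 CPM in Ash1l+/- and 7.95, 30.8 and 10.9 CPM in WT (log2 fold change -1.06, SE 0.20, adjusted p = 0.00164). Hoxb5 and Hoxb8 fell by 0.93 (SE 0.12) and 0.92 (SE 0.14) on the log2 scale. With all 6 libraries edgeR called none of the 24, and 5 had an unadjusted p under 0.05, each lower.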

How the data were processed

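Bulk RNA-seq of mouse dorsal root ganglia was deposited as raw read counts per gene, with coordinates on GRCm38 and with a deposited FPKM table beside it. The submitters' processing notes name the aligner HISAT2 2.0.5, the counter featureCounts 1.5.0-p3 and GRCm38 (mm10), without settings. Per the labels' protocols, libraries came from Trizol RNA with a NEBNext Ultra kit. The deposited FPKM equal the counts divided by gene length and 1 library size per sample, and served as an alternative scale.

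From the counts, genes kept by filterByExpr entered edgeR 4.0.16 (R 4.3.3), quasi-likelihood test, with TMM factors (0.759 in WT replicate 2, 1.05 to 1.07 elsewhere) and a genotype term; p-values were Benjamini-Hochberg adjusted over all genes, at 0.05. SEs are the log2 fold change over the square root of F. The script was tested on simulated data. GC and length trends were removed per library by loess (span 0.3) on gene length and on the GC content of the longest GENCODE M21 transcript, as an offset; GC was found for 99.9% of tested genes. Shares of paralogs were compared by two-sided exact permutation tests over the 6 libraries. No libraries were duplicates (chi-square per degree of freedom of 3.71 or more for every pair).

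The members and lists were chosen with earlier results of these data known. Values per library were given for members past the threshold and for the member of each other role with the largest fold; the folds of Kmt2d, Pcgf3, Ezh1, Ezh2, Rnf2, Cbx6, Phc1 and Phc2 were chosen after their values were seen, as were the fits with 1 trend removed. Of the partner lists, up to 3 called genes each were named. Alternatives used DESeq2 1.42.0 (on all genes with a read), limma 3.58.1 (voom, and log2 of FPKM with a pseudocount of 1 or 0.1), other scalings and filters, the replicate number as a block, and each library left out. Counting error is small for most members: 37 reads was the lowest count.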

Additional observations from a re-analysis of the deposited data

How the results depend on the processing

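With all 6 libraries, 0 members and 0 genes were called in edgeR under each scaling and filter, limma-voom, both FPKM scales and the replicate block. GC and length trends were removed only in the main edgeR fit and the replicate block, where 0 were called as well. DESeq2 called 3 genes, and voom with library quality weights called 4179 genes and 10 members. Leaving out single libraries gave 0 to 3252 genes and 0 to 6 members, the highest without WT replicate 2 and 0 without any other. Library totals moved the median log2 fold change of all genes by 0.13. The replicate block called 0 genes. Same-numbered libraries deviated from their group means together at r of -0.0317 to 0.0378. WT replicate 2 shifts the mean from which every wild type deviates, so these values can hardly tell whether the numbers are pairs. The main test did not take them as pairs.

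Without WT replicate 2, RLE, library totals, the CPM filter and limma-voom called the same 6 members, and DESeq2 called 5 of them. Removing GC and length trends gave 1178 genes and 3 members, and the GC trend alone 1573 genes and 3 members; the length trend alone gave 2352 genes and 5 members, of which 1, Suz12, was among the 6. Leaving out a second library gave 796 to 4198 genes and 2 to 10 members: 2 (Kmt2a and Kmt2c) without WT replicate 1, where 1 wild type is assumed to vary like the other group, and 10 without Ash1l+/- replicate 1, of which 6 were the members called before. Without Ash1l+/- replicate 2 there were 1855 genes and without Ash1l+/- replicate 3 there were 2120. The 6 members kept their direction in all 13 alternatives run without WT replicate 2 and passed in 12 for Kmt2a, 11 for Kmt2c, 10 for Suz12, 9 for Phc3, 8 for Kmt2e and 6 for Ring1.

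Removing the trends turned the direction of 10 of 34 members with all 6 libraries and of 15 of 34 without WT replicate 2, and removing the GC trend alone that of 14. Of the members whose fold changes the text gives, those that turned with all 6 libraries and trends removed went to 0.11 for Ring1, which was called lower without WT replicate 2, -0.11 for Rnf2, -0.19 for Pcgf3, 0.08 for Cbx7 and -0.01 for Ezh2, and with the replicate block as well 0.15, -0.11, -0.19, 0.10 and 0. Dpy30 went to 0.25 with quality weights and, over single libraries left out, ranged from -0.45 to 0.21, and Pcgf3 ranged from -0.02 to 0.46. Without WT replicate 2 and with trends removed, among the same members Kdm6a went to -0.05, Rnf2 to -0.04 and Phc2 to 0.09; with GC alone removed, Rnf2 went to -0.06 and Phc2 to 0.12; with length alone removed, Kmt2d went to -0.04. Pcgf3 without WT replicate 2 ranged from -0.09 to 0.05 over a second library left out. The Cbx7 share difference ranged from -1.19 to 4.36 points over single libraries left out. The cause was not tested. Ezh2 rests on the fewest reads.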
